A study of Rattus norvegicus with 16 samples.

Results

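The early response to an androgen agonist was examined in cultured cells from rat muscle. The contrast was 4 h of treatment with NARA, a nonsteroidal agonist of the androgen receptor, against 4 h of vehicle. The cells were levator ani satellite cells (LASCs), labelled as satellite cells, the stem cells of skeletal muscle, of the levator ani, a pelvic muscle that depends on androgens for its size. The series held 16 arrays in 4 groups of 4, namely NARA at 10 nM and vehicle at 0.2% DMSO, each for 4 h and for 48 h, on the Affymetrix Rat Genome 230 2.0 array. The 4 h contrast used 6 of the 16 arrays, chosen by their titles, which were NARA replicates 2 and 3 and vehicle replicates 1 to 4. NARA replicates 1 and 4 were set aside because the authors had excluded both as outlying chips.

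All cells were at passage 5, and during treatment the serum of the medium was replaced in every group by charcoal-stripped serum, which is depleted of steroids. The labels name the samples biological replicates but do not say whether they came from separate cultures or animals. The p-values therefore take as error the variation among these samples, part or all of which may be technical, and the number of arrays, 2 against 4, limits the precision of every value below.

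The androgen receptor is a ligand-activated transcription factor of the steroid receptor family. On binding an agonist it leaves its chaperones, enters the nucleus and binds DNA as a dimer, so the first transcripts to move after ligand are usually sought within hours, before secondary changes accumulate. Its DNA element resembles that of the glucocorticoid receptor, and both receptors are known to act on some of the same genes in other tissues. In the levator ani, androgens maintain fibre size, and IGF1 signalling and the satellite cells are among the mediators that have been studied.

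The 6 arrays were alike in overall quality. On the log2 scale used for the tests, the NARA arrays correlated with each other at 0.950, the vehicle arrays among themselves at 0.947 to 0.955, and arrays across the groups at 0.944 to 0.959, so the treatment did not separate the arrays as wholes. Median signals lay between 568 and 605. The ratio of 3′ to 5′ signal of the actin control, a measure of RNA integrity, was 2.42 and 2.66 in NARA and 2.52 to 2.81 in vehicle. That of Gapdh was 1.10 and 1.07 in NARA and 1.11 to 1.17 in vehicle, slightly lower in both NARA arrays, and its part in the results was not tested. The excluded NARA replicates 1 and 4 correlated with the 6 arrays at only 0.560 to 0.589.

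The label of a muscle satellite cell was compared with defining markers. Pax7 and Myf5, the transcription factors that mark satellite cells and myoblasts, could not be looked up, since the annotation used here lists no probe set for either. Myod1 was near the bottom of the scale on all 6 arrays, at 12.1 and 18.3 in NARA and 42.4, 189.8, 23.3 and 41.4 in vehicle. Of the 8 myogenic markers on the array, Myog, Des and Cdh15 averaged above the signal minimum of 300, and the summed level of the list was 3724 and 3681 in NARA and 2686 to 4830 in vehicle. In the excluded NARA replicates 1 and 4, which carried liver transcripts, the same sum was 4405 and 5579. The myogenic level of the 6 arrays was therefore not clearly above that of arrays carrying liver transcripts. All 18 fibroblast markers were above the minimum, with sums of 928507 and 842092 in NARA and 765896 to 948775 in vehicle. Col1a1, a fibrillar collagen, had 67416 and 61963 in NARA and 63509, 67697, 69219 and 60609 in vehicle. The cells are called LASCs here after their label. These markers do not settle it, and the myogenic signals gave it no clear backing. In such bulk RNA, fewer cells of a type and less RNA per cell cannot be told apart. Across the 10 lists of cell type markers, the summed levels of the groups were compared by an exact two-sided permutation test, which gave p between 0.267 and 0.867, where the smallest p that 2 against 4 arrays allow is 0.0667. Markers of liver summed to 7259 and 6929 in NARA and 6652 to 7353 in vehicle.

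Most transcripts were nearly the same after 4 h. Across the 20770 probe sets tested, the median log2 difference of NARA minus vehicle was 0.0073 and the median size of the difference was 0.143. Signals are MAS5 intensities on a linear scale, and every log2 difference was taken on log2(signal + 50), which understates the change of dim probe sets. In limma with Benjamini-Hochberg adjustment over all probe sets tested, 3 of 20770 probe sets passed an adjusted p of 0.05, 1 higher and 2 lower in NARA, a share of 0.0144%. At an unadjusted p under 0.05 there were 1116 (5.37%), of which 492 were higher and 624 lower. A difference of at least 2-fold was found for 337 probe sets (1.62%), and 178 of these (0.857%) also had NARA and vehicle arrays that did not overlap.

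Those large differences belonged almost entirely to dim transcripts. Taking 1 probe set per gene, 136 of 3784 genes with a mean signal of 300 to 1000 differed by at least 2-fold, against 1 of 3919 genes at 1000 to 3000, 1 of 2565 at 3000 to 10000 and 0 of 974 above 10000. The median size of the log2 difference was smaller in the brighter classes, at 0.233, 0.115, 0.0825 and 0.0588. The median standard error of a gene was 0.263 in the dimmest class and 0.120 in the brightest, so the differences of bright transcripts were the better determined.

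**Figure D1:**
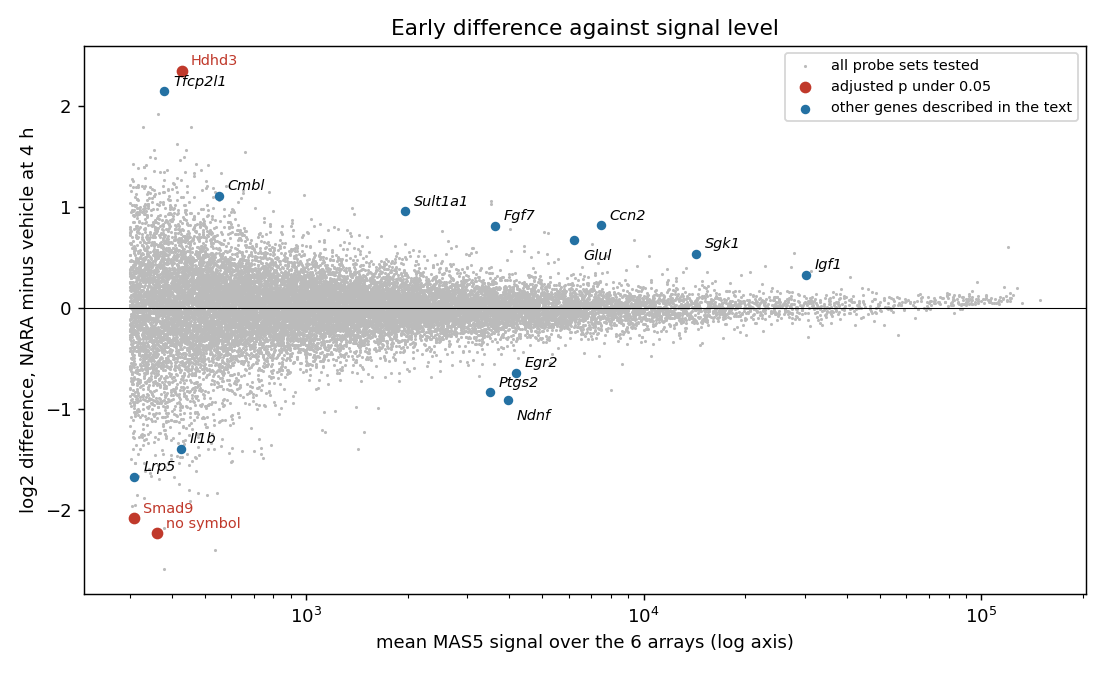
Log2 difference of NARA minus vehicle at 4 h (vertical axis) against the mean MAS5 signal over the 6 arrays (horizontal log axis) for the 20770 probe sets tested. The spread is widest among dim probe sets, the 3 probe sets with an adjusted p under 0.05 are all dim, and Glul, Fgf7, Ccn2 and Sgk1 stand apart from probe sets of like signal on the higher side, as Ptgs2, Ndnf and Egr2 do on the lower side.

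Hdhd3 was the 1 gene of 11242 (0.0089%) that passed by the probe set standing for it, and it rose. It encodes a hydrolase of the haloacid dehalogenase family whose role in muscle is little known. Its signals were 925 and 1036 in the NARA arrays, against 140.4, 139, 162 and 167 in the vehicle arrays. Both NARA arrays lay far above a tight vehicle group, and the rise was 5.10-fold, or 2.35 log2 units (SE 0.124, limma adjusted p = 0.0121). Its mean was 981 in NARA and 152 in vehicle, so it reached the signal minimum of 300 only through the NARA arrays. At 48 h, in arrays that are not shared with the 4 h groups, Hdhd3 was higher in NARA by 2.01 (SE 0.265, limma adjusted p = 0.00175). That SE and p come from a fit whose estimate of the spread also uses the 4 h arrays. At 4 h it did not pass when any single array was left out (limma adjusted p = 0.0805 to 0.114), nor in a fit of the 13 arrays that the authors kept (0.0691).

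The other passing probe sets fell. One probe set of Smad9, which encodes a signal transducer of BMP receptors, had signals of 63.9 and 62.9 in NARA, against 481, 431, 409.5 and 401 in vehicle, a log2 difference of -2.08 (SE 0.119, limma adjusted p = 0.0121). A brighter probe set of Smad9 lay at 0.26 (unadjusted p = 0.598), so the gene was not counted as changed. The third probe set has no gene symbol in the annotation used here and had 70.0 and 66.7 in NARA, against 481, 542, 449 and 556 in vehicle, a log2 difference of -2.23 (SE 0.128, limma adjusted p = 0.0121). Each reached the signal minimum of 300 on average only through its vehicle arrays, and its NARA values lay near the bottom of the scale, so a difference between the groups was a condition of its being tested. At 48 h the Smad9 probe set lay at 0.58 and the unnamed one at -0.35, and neither passed. Neither passed at 4 h when any single array was left out, with limma adjusted p = 0.0805 to 0.114 for both, nor in the 13-array fit. With a trended and robust prior for the spread, which gives bright and dim probe sets different priors, 8 other probe sets passed, among them those of Glul, Ptgs2, Fgf7, Ndnf, Tent5a and Rbm39 (limma adjusted p = 0.0236 each).

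Among the bright transcripts, Glul separated the groups clearly. It encodes glutamine synthetase, which makes glutamine from glutamate and is a classical steroid-responsive enzyme of muscle. Its signals were 8165 and 8445 in NARA, against 5246, 5147, 5175 and 5143 in vehicle. The vehicle arrays were almost identical and both NARA arrays lay well above them, a 1.60-fold difference (0.68 log2, SE 0.101, limma adjusted p = 0.512). The other probe sets of Glul lay at 1.06 and 0.56, so each probe set gave the same direction.

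Of 24 measured IGF and growth factor genes, 3 were higher and 0 lower at an unadjusted p under 0.05, where 1.62% of all genes were higher and 2.94% lower. The list's median was 0.08, 14 members lay above 0 and 10 below, and none passed the adjusted threshold at 4 h. The 3 were Fgf7, Ccn2 and Igf1. Fgf7, the keratinocyte growth factor that fibroblasts and other mesenchymal cells release to act on epithelium, had 5275 and 4924 in NARA, against 2681, 3161, 2936 and 2734 in vehicle, a log2 difference of 0.82 (SE 0.121, limma adjusted p = 0.512). The groups did not overlap. Ccn2, a matricellular protein also known as connective tissue growth factor, had 10967 and 9852 in NARA, against 6849.8, 5364, 7241 and 4429 in vehicle, at 0.82 (SE 0.224, limma adjusted p = 0.795). The vehicle arrays of Ccn2 were widely spread, and both NARA arrays were above all of them. Igf1, the growth factor through which androgens are thought to act in part on muscle, had 36731 and 33329.7 in NARA, against 29677, 27965, 27165 and 26359.7 in vehicle, at 0.33 (SE 0.115, limma adjusted p = 0.894). The NARA arrays of Igf1 exceeded the highest vehicle array by a small margin, and its other probe sets lay at 0.59 and 0.28. At 48 h all 3 genes were higher and passed, with 0.97 for Fgf7, 1.01 for Ccn2 and 1.60 for Igf1. For the increase of the effect on Igf1 between 4 h and 48 h, these other probe sets gave 0.99 and 1.59 log2 units (limma adjusted p = 0.186 and 0.0198). For the brightest probe set, which stands for the gene, the increase was past the threshold, at 1.27 log2 units (limma adjusted p = 0.0222). That call was lost, with limma adjusted p of 0.0562 to 0.0830, without vehicle replicate 1 or 3 or either NARA array of the 4 h groups and without vehicle replicate 3 or NARA replicate 4 of the 48 h groups, and it was lost with the replicate number as a block (limma adjusted p = 0.210).

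**Figure D2:**
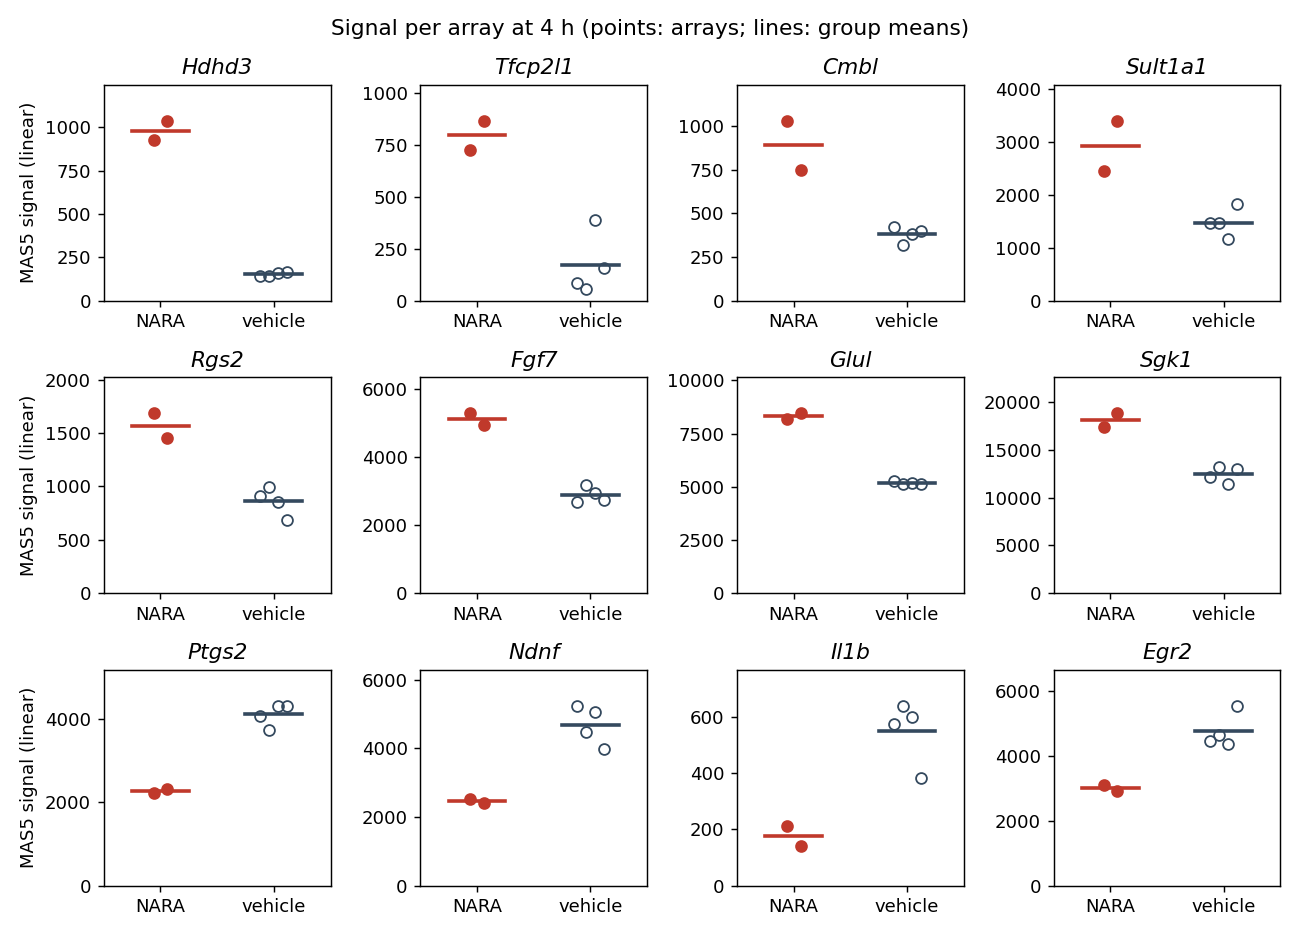
MAS5 signal on a linear axis in each NARA array (filled points, left) and each vehicle array (open points, right) at 4 h for 12 genes, with lines at the group means. The NARA points of Hdhd3, Tfcp2l1, Cmbl, Sult1a1, Rgs2, Fgf7, Glul and Sgk1 lie above all vehicle points, and those of Ptgs2, Ndnf, Il1b and Egr2 lie below them.

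The glucocorticoid-responsive list, chosen like the others with earlier results of these data known, had 20 measured members, of which 6 had an unadjusted p under 0.05 and a higher level in NARA and 0 a lower one, where 1.62% of all genes were higher and 2.94% lower by this rule. Of the 20, 13 lay above 0 and 7 below, and the median log2 difference was 0.10, against -0.0014 for all genes. The 6 were Glul, Sgk1, Tsc22d3, Klf15, Errfi1 and Sult1a1, and with the exception of Sult1a1 they also belong to the androgen-responsive list, so the lists are not separate observations. None passed the adjusted threshold. Pdk4, a kinase that restrains glucose oxidation and a known glucocorticoid target, lay at -1.51, with 35.7 and 741 in NARA, against 961, 479, 761 and 648 in vehicle, so that value rested on NARA replicate 2.

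Sgk1, a kinase that regulates ion transport and is known for its rapid induction by steroids, had 17355 and 18808 in NARA, against 12116, 13172, 11452 and 12976 in vehicle. Both NARA arrays were above all 4 vehicle arrays, at 0.54 log2 units (SE 0.118, limma adjusted p = 0.664). Tsc22d3, the leucine zipper protein GILZ that mediates anti-inflammatory effects of glucocorticoids, had 3582 and 3916 in NARA, against 2391, 2334, 3075 and 2530.1 in vehicle, a difference of 0.54 (SE 0.150) with no overlap. Klf15, a transcription factor of amino acid catabolism in muscle, had 1856 and 1627 in NARA, against 1372, 1301, 1189 and 1414 in vehicle, at 0.39. Errfi1, a feedback inhibitor of the EGF receptor, had 1957 and 1722 in NARA, against 1128, 754, 1291 and 1322 in vehicle, at 0.72. Each of these genes had NARA arrays that did not overlap the vehicle arrays, as 6.67% of all genes did in the higher direction. Sgk1, Tsc22d3 and Errfi1 passed at 48 h in the same direction, while Klf15 at 0.35 did not (limma adjusted p = 0.141).

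The androgen-responsive list was mixed. Of 25 measured members, 7 were higher and 1 lower at an unadjusted p under 0.05, against 1.62% and 2.94% of all genes. None passed the adjusted threshold, 15 lay above 0 and 10 below, and the median was 0.04. Beside the shared genes, the higher members were Igf1 and Tmprss2, a membrane serine protease and prostate androgen target. Tmprss2 had 766 and 767 in NARA, against 68.5, 151, 440.3 and 448 in vehicle, so it was dim in both groups. On average it reached the signal minimum only through its NARA arrays. A higher level in NARA was therefore a condition of its being tested. Cited2, a transcriptional coregulator, was the lower one at -0.35. Other textbook targets did not pass even unadjusted, with 0.09 for the stress-response gene Ndrg1, 0.05 for the sorbitol dehydrogenase Sord, -0.06 for the fatty acid elongase Elovl5 and -0.31 for Pmepa1, an inhibitor of TGF-beta signalling.

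Fkbp5, the receptor-bound immunophilin that is a sensitive reporter of androgen and glucocorticoid action in many cells, was less clear than Glul or Sgk1. Its signals were 1728 and 1189 in NARA, against 1280.3, 817, 870.1 and 424 in vehicle. The lower NARA array lay under the highest vehicle array and the vehicle arrays spanned a wide range, so the difference of 0.82 (SE 0.406, unadjusted p = 0.0895) did not exceed the spread. A second, separately measured probe set of Fkbp5 lay at 1.09 (unadjusted p = 0.0412). That probe set averaged 656 in NARA and 257 in vehicle, so it reached the signal minimum only through its NARA arrays. At 48 h Fkbp5 was higher by 1.80 (limma adjusted p = 0.00476). Among 18 receptor chaperones and heat shock genes, 1 was higher and 0 lower at an unadjusted p under 0.05. Of all genes 1.62% were higher and 2.94% lower, so 1 in a list of this size is not unusual. It was Hspa4, an Hsp110-family cochaperone, with 2405 and 2107 in NARA, against 1807, 1573, 1473 and 1666 in vehicle.

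Of 16 measured steroid receptors and coregulators, 0 were higher and 1 lower at an unadjusted p under 0.05, where 1.62% and 2.94% of all genes were. The members' log2 differences ran between -0.73 and 0.27, with a median of -0.03. The lowest was Hipk3, a homeodomain-interacting kinase, whose 599.9 and 123 in NARA, against 665, 653, 290.2 and 517 in vehicle, overlapped (unadjusted p = 0.242). The lower gene was Carm1, an arginine methyltransferase and coactivator, at -0.34. Nr3c1, the glucocorticoid receptor, had 6108 and 6729.8 in NARA, against 7182, 7914, 7235 and 7735 in vehicle. Both NARA arrays lay below all vehicle arrays, but the difference of -0.23 (SE 0.114, unadjusted p = 0.0925) did not pass even unadjusted, while at 48 h Nr3c1 was lower by a log2 difference of -0.54 and passed.

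The list of phase I and II metabolism, for enzymes that oxidise, hydrolyse and conjugate small molecules, was made to include Hdhd3. Its log2 difference was the highest of the 11242 genes. Hdhd3 is a hydrolase whose role in muscle is little known, and no phase I or II role of it was measured here. It is among the members counted as higher below, and it reached the signal minimum only through its NARA arrays. Of 20 measured members, 4 were higher and 1 lower at an unadjusted p under 0.05, where the shares of all genes were 1.62% and 2.94%. A difference above 0 was found for 17 of the 20, where 49.5% of all genes had one, and the median was 0.16. Hdhd3 and Cmbl were placed in this list with earlier results of these data known, so the count is not independent of those results. Cmbl, a cysteine hydrolase known for prodrug activation, had 1031 and 749.8 in NARA, against 425, 317, 383 and 401 in vehicle, 2.17-fold (1.11 log2, SE 0.176, limma adjusted p = 0.512). Sult1a1, which sulfates phenols, had 2447 and 3399.7 in NARA, against 1460.3, 1462, 1166 and 1822 in vehicle, at 0.96 (SE 0.216). Both genes had NARA arrays clear of the vehicle range, as 6.67% of all genes did in the higher direction. The size rule that named Sult1a1 admits only such genes. All 15 higher genes of smallest p, Cmbl among them, were also without overlap. This separation is therefore no separate observation. Both genes passed at 48 h, at 1.71 and 2.70. The growth of the Sult1a1 effect between the times was 1.74 log2 units (limma adjusted p = 0.0222), whereas that of Cmbl was 0.59 (limma adjusted p = 0.437). For Sult1a1 the call was lost, at limma adjusted p of 0.0511 to 0.0834, without vehicle replicate 1 or either NARA array of the 4 h groups and without vehicle replicate 2, 3 or 4 or NARA replicate 4 of the 48 h groups, and with the block (limma adjusted p = 0.178). Gsta4, a glutathione transferase, was the lower member at -0.81.

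Of 28 measured transcription and chromatin regulators, 3 were higher and 0 lower at an unadjusted p under 0.05, where 1.62% and 2.94% of all genes were, and the median was 0.02. None of them passed the adjusted threshold at 4 h, and neither did Tent5a or Clk4, which are described with them. Tfcp2l1, a transcription factor of the CP2 family known from kidney and pluripotent cells, had 727 and 866 in NARA, against 84.0, 57.2, 389 and 157 in vehicle. It averaged 797 in NARA and 172 in vehicle, so it reached the signal minimum only through its NARA arrays. A higher level in NARA was therefore a condition of its being tested and counted. Its vehicle arrays differed several-fold among themselves, so a difference of 2.15 carried a standard error of 0.553 (limma adjusted p = 0.775), and at 48 h it passed at 3.24. Jade1, a scaffold of a histone acetyltransferase complex, had 5420.0 and 6122 in NARA, against 3838, 3519.9, 3813 and 3771 in vehicle, at 0.62 (SE 0.114). Tent5a, a noncanonical poly(A) polymerase, had 9049 and 9448 in NARA, against 6082, 6206, 5800.1 and 5696 in vehicle, at 0.63 (SE 0.107). Clk4, a kinase of splicing factors, had 4224 and 3897 in NARA, against 2669, 2664, 2889 and 2736 in vehicle, at 0.56 (SE 0.109). Dimmer probe sets lay at 0.21 for Jade1 and at 0.51 and 0.38 for Tent5a at 4 h, each with overlapping groups. Jade1 and Tent5a were higher and passed at 48 h, whereas Clk4 lay at 0.27 and did not.

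Rgs2, Enpp1, Gpcpd1 and Spag4 were named by their p or by the size of their difference, and none passed the adjusted threshold at 4 h. Rgs2, which switches off Gq-coupled receptor signals, had 1684 and 1453 in NARA, against 907, 999, 856 and 683 in vehicle, 1.79-fold (0.84 log2, SE 0.174, limma adjusted p = 0.664). Enpp1, an ectoenzyme that makes pyrophosphate, had 1140.3 and 1037 in NARA, against 562, 368, 764 and 619.8 in vehicle, at 0.90. Gpcpd1, a glycerophosphocholine phosphodiesterase, had 1889.9 and 2226 in NARA, against 942, 791, 1011 and 1352 in vehicle, at 0.99. In each the NARA arrays lay above all vehicle arrays, as in 6.67% of all genes, but the size rule that named them admits only such genes. Each passed at 48 h in the same direction. A dimmer probe set of Gpcpd1 lay at 0.38 at 4 h with overlapping groups (limma unadjusted p = 0.167), and that of Rgs2 lay at 0.61 without overlap. Spag4, a SUN-domain protein of the nuclear envelope, behaved otherwise: its signals of 1096 and 1149.8 in NARA, against 579, 630.0, 644 and 589 in vehicle, gave 0.83 (SE 0.110) at 4 h, but the 48 h difference was 0.08 (SE 0.208). The change between the times did not pass for Spag4 (limma adjusted p = 0.522).

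Trim63, the muscle ubiquitin ligase MuRF1 that tags myofibrillar proteins in atrophy, lay higher with the agonist. It had 2149 and 3016 in NARA, against 1541, 1576, 1692 and 2119.6 in vehicle. The lower NARA array only just exceeded the highest vehicle array, and the difference was 0.55 (SE 0.198, limma adjusted p = 0.913). Of 18 ubiquitin ligase and atrophy genes, 3 were higher and 0 lower at an unadjusted p under 0.05, beside 1.62% higher and 2.94% lower among all genes, with a median of 0.05. None passed the adjusted threshold. The others were Klf15 and Sesn1, a stress-induced inhibitor of mTORC1, which lay at 0.48 at 4 h and at -0.15 at 48 h.

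Ptgs2, the inducible cyclooxygenase of prostaglandin synthesis, had 2230.4 and 2329 in NARA, against 4069.8, 3746, 4313 and 4314 in vehicle. The NARA arrays agreed closely and lay below every vehicle array, a difference of -0.83 log2 units (1.78-fold lower, SE 0.117, limma adjusted p = 0.452). At 48 h Ptgs2 was lower by a log2 difference of -2.31 and passed, and the deepening between the times was -1.48 (limma adjusted p = 0.0270). Leaving out any single array of the 4 h groups, any single vehicle array of the 48 h groups or NARA 48 h replicate 4 took the limma adjusted p of that deepening to between 0.0516 and 0.0944, above the threshold, and the block took it to 0.178. Il1b, the cytokine interleukin 1 beta, had 212 and 141 in NARA, against 575, 639, 599 and 381 in vehicle, at -1.39 (SE 0.238). Its groups did not overlap but its level was low, and at 48 h it lay at 0.25 and did not pass. At 4 h Il1b averaged 177 in NARA and 548 in vehicle, so it reached the signal minimum only through its vehicle arrays. Icam1, a leukocyte adhesion molecule, had 848 and 1894 in NARA, against 2217, 2174, 1969.9 and 2166 in vehicle, so its difference of -0.72 rested largely on NARA replicate 2.

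Members of the cytokine and NF-kB list lay on both sides of 0. Of 26 measured members, 1 was higher and 4 lower at an unadjusted p under 0.05, against 1.62% and 2.94% of all genes, 11 lay above 0 and 15 below, and the median was -0.11. None passed the adjusted threshold. The higher one was Il1a, interleukin 1 alpha, with 712 and 550.3 in NARA, against 409.7, 429, 360.2 and 443 in vehicle, opposite in direction to Il1b. Chemokine genes lay on both sides, with 0.36 for Cxcl1, -0.70 for Cxcl2 and -0.07 for Ccl2. Cxcr4, the receptor of the chemokine Cxcl12 and a satellite cell surface protein, had 2138 and 2834 in NARA, against 3689, 4583, 2510.1 and 4146 in vehicle. Its groups overlapped at 4 h, at -0.56 (SE 0.266), although at 48 h it passed at -3.02, and the change between the times did not pass (limma adjusted p = 0.0577). The other probe sets of Cxcr4 lay at -0.45 and -0.49 at 4 h (unadjusted p = 0.117 and 0.0289), with NARA arrays below all vehicle arrays in both. For the one at -0.45 the change between the times passed, at -2.65 (limma adjusted p = 0.0198), but not without either NARA array of the 4 h groups, vehicle 48 h replicate 3 or NARA 48 h replicate 4 (limma adjusted p = 0.0536 to 0.0771), nor with the block (0.178).

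Ndnf, Cldn1 and Osbpl7 were also among the genes named as lower, and none passed the adjusted threshold at 4 h. Ndnf, a secreted neurotrophic factor with fibronectin domains, had 2515 and 2416 in NARA, against 5239.9, 4476, 5072 and 3989 in vehicle, at -0.91 (SE 0.148, limma adjusted p = 0.512), and passed at 48 h at -1.16. Cldn1, a tight junction protein, had 503 and 545 in NARA, against 1049.5, 1118, 952 and 1016 in vehicle, at -0.92, but its other probe sets lay at 0.18 and 0.40 and its 48 h value was 0.17. Osbpl7, an oxysterol-binding protein homologue, had 1001 and 925 in NARA, against 1923, 2321, 1779.7 and 1858 in vehicle, at -0.99, and lay at -0.19 at 48 h. All 3 had NARA arrays below all vehicle arrays, as 7.49% of all genes did. The size rule that named them admits only genes without overlap, so this separation is no separate observation. Only Ndnf passed at the later time.

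Of 25 Wnt pathway genes, 0 were higher and 4 lower at an unadjusted p under 0.05, where 1.62% of all genes were higher and 2.94% lower, and the median was -0.02. None passed the adjusted threshold. Lrp5, a Wnt co-receptor, had 73.8 and 121 in NARA, against 446, 406, 472 and 338 in vehicle, at -1.67 (SE 0.190, limma adjusted p = 0.320). It was dim and reached the signal minimum of 300 only through the vehicle arrays, with means of 97.5 in NARA and 415 in vehicle, and its 48 h difference was 0.08. The secreted antagonists Sfrp1 and Wif1 lay at -0.53 and -0.69, and Ccn4, a Wnt-inducible matricellular protein, at -0.38. A dimmer probe set of Sfrp1 lay at -0.14 with overlapping groups (limma unadjusted p = 0.417). Ccn4 had 3190.1 and 3062 in NARA, against 4565, 4100.0, 4018 and 3734 in vehicle, and was the 1 of these 4 that passed at 48 h, at -0.64.

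Among 32 immediate early genes and feedback inhibitors of ERK, 1 was higher and 2 lower at an unadjusted p under 0.05, beside 1.62% and 2.94% of all genes, with a median of -0.05. Egr2, a zinc finger transcription factor induced by growth factor signalling, had 3111 and 2934 in NARA, against 4470.3, 4645, 4359 and 5543 in vehicle. Its NARA arrays lay well below the vehicle arrays, at -0.64 (SE 0.139, limma adjusted p = 0.664), and a dimmer probe set lay at -1.05. The dimmer one averaged 203 in NARA and 532 in vehicle, so it reached the signal minimum only through its vehicle arrays. At 48 h Egr2 was lower by a log2 difference of -1.80 and passed. Klf4, a Krüppel-like transcription factor, lay at -0.35 at 4 h and 0.07 at 48 h. Ccn1, a matricellular immediate early gene, was higher at 0.28, and lay at -0.41 at 48 h.

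Lists of muscle identity, proliferation and housekeeping functions had few members past an unadjusted p of 0.05. Of all genes 1.62% were higher and 2.94% lower by this rule. At those shares few members are expected in lists of this size, so the low counts are nothing particular to these functions. Of 13 satellite cell and myoblast markers, 0 had an unadjusted p under 0.05. Of 40 mitosis genes, 0 did, although 33 lay below 0, where 50.5% of all genes did, and the median was -0.12. Of 31 DNA replication and repair genes, 0 were higher and 2 lower, Gins1 at -0.76 and Cdt1 at -0.41, where 2.94% of all genes were lower, and the median was -0.02. Top2a, the topoisomerase of dividing cells, had 2415 and 1439 in NARA, against 2845, 2718, 3676 and 1887 in vehicle, a wide spread within both groups. Of 46 collagen and matrix genes, the 1 past that threshold was Eln, elastin, lower at -0.46. The unfolded protein list, with 33 members, the ribosome list, with 23, and the myostatin, activin and BMP list, with 20, each had 0. Fst, the follistatin that blocks myostatin and activin, had 1825 and 1354 in NARA, against 1454, 1126, 1504 and 958 in vehicle, and its groups overlapped at 4 h (log2 0.33, SE 0.230), while at 48 h it passed at 2.16. A second probe set of Fst had 1546 and 1367 in NARA, against 815, 736, 1043 and 1029.9 in vehicle, without overlap, at 0.67 (SE 0.180, unadjusted p = 0.00937, limma adjusted p = 0.795).

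**Figure D3:**
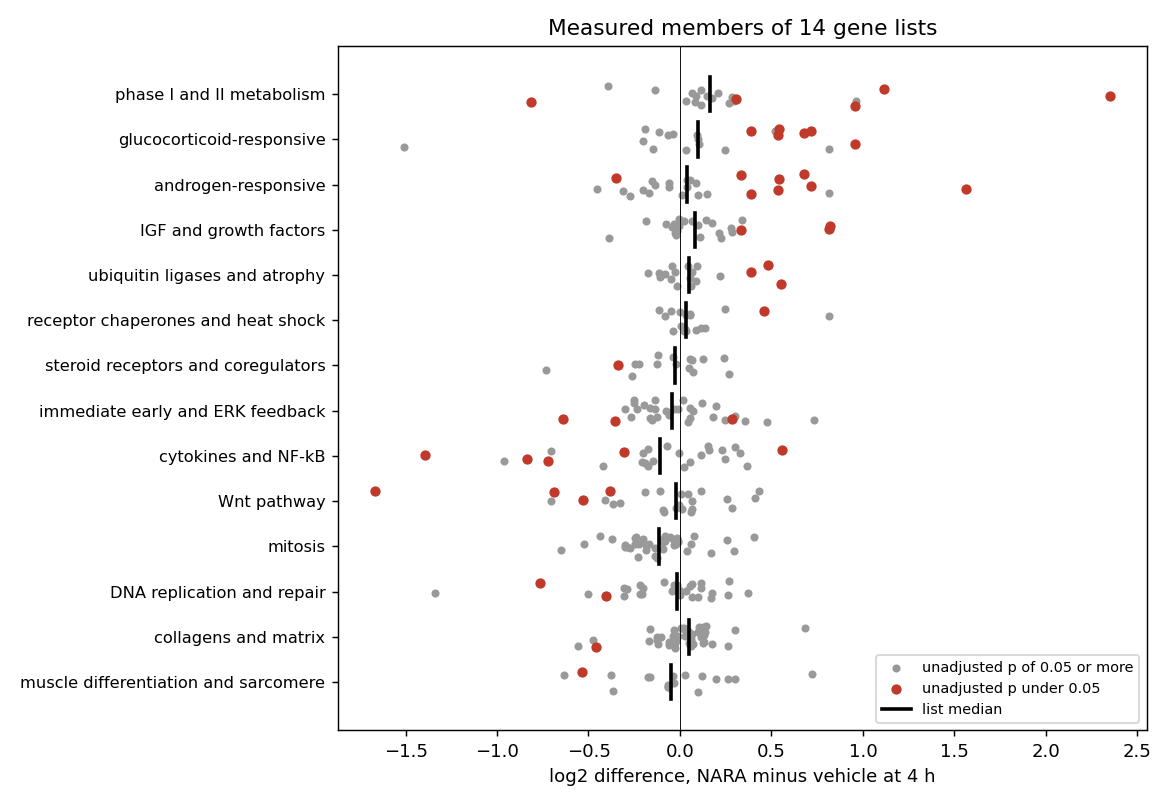
Log2 difference of NARA minus vehicle at 4 h for the measured members of 14 of the 32 functional gene lists, one point per gene, red where the unadjusted p was under 0.05, with a black line at each list's median. The medians lie between -0.12 and 0.16, and single members rather than whole lists reach beyond 0.5 in either direction.

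The list medians are small compared with their dependence on single arrays. Of the 32 functional lists, 8 changed the sign of their median without NARA replicate 2 and 9 without NARA replicate 3. Without single vehicle arrays 1 to 6 did.

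The early genes were followed to 48 h. Of the 15 higher genes of smallest p at 4 h, 14 were above 0 at 48 h, where 49.1% of all genes were, and 10 passed the adjusted threshold there in the same direction, where 1.67% of all genes did. These 10 were Hdhd3, Fgf7, Glul, Cmbl, Tent5a, Nkain1, Jade1, Gucd1, Rgs2 and Sgk1. Of the 15 lower genes, 6 were below 0 at 48 h and 2 passed, Ptgs2 and Ndnf, where 1.54% of all genes passed as lower. The median 48 h difference was 0.89 for the 15 higher and 0.08 for the 15 lower genes. The 48 h test shares 1 estimate of the spread with the 4 h arrays, and a small p at 4 h favours genes of small spread. The counts that passed at 48 h are therefore not independent of the choice, whereas the 48 h differences use the 48 h arrays only. When the genes were chosen anew without each of the 6 arrays, 10 to 13 of the higher genes were above 0 at 48 h and 6 to 8 passed. Of the lower genes, 5 to 11 were below 0 and 0 to 3 passed, 0 without NARA replicate 2 and 0 without NARA replicate 3. Many of the lower genes were dim, with mean NARA signals under 300 for Lrp5, Upk3bl1, Mbp, Lrrc4b, Krt4, Il1b, Scarb1 and Glod5. Each of these reached the signal minimum of 300 only through its vehicle arrays, so a lower level in NARA at 4 h was a condition of its being tested. Among the higher genes, Hdhd3 and Caly reached the minimum only through their NARA arrays. The difference in course between the directions was not tested.

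**Figure D4:**
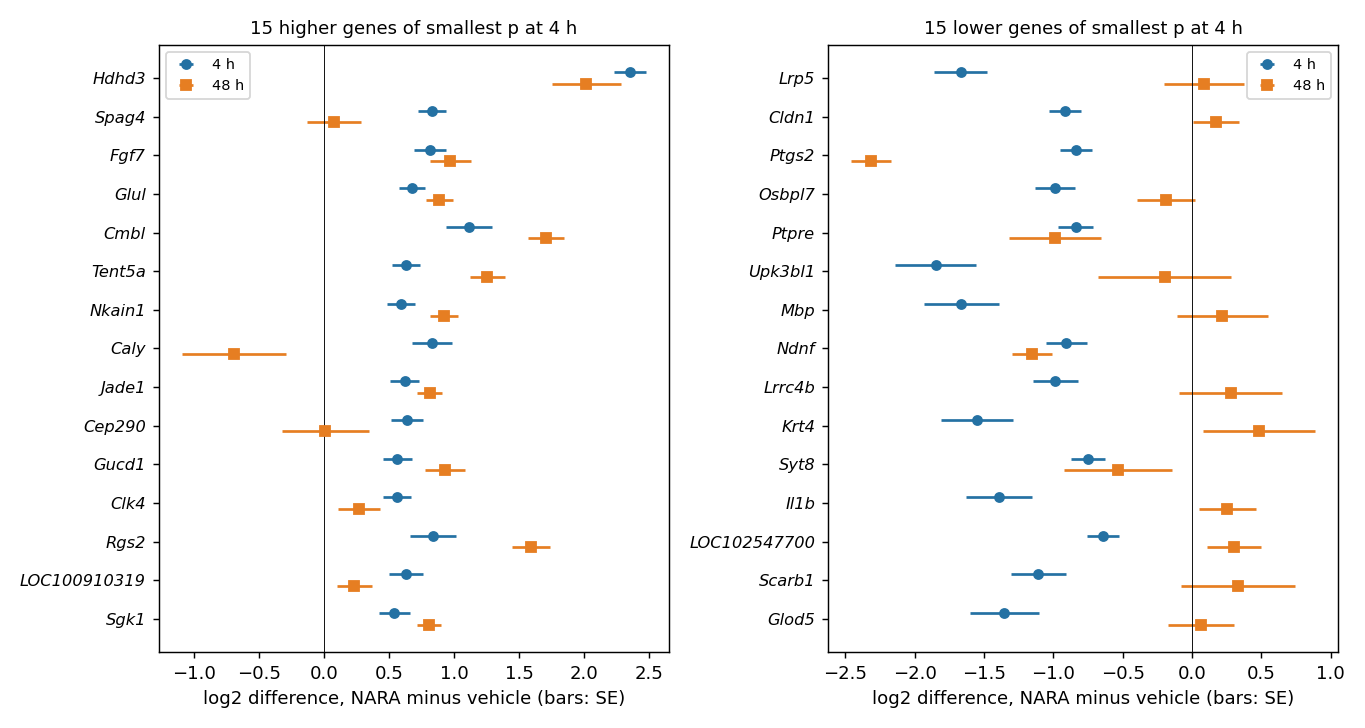
Log2 difference of NARA minus vehicle at 4 h (circles, 6 arrays) and 48 h (squares, 7 arrays) with standard errors, for the 15 higher genes (left) and the 15 lower genes (right) of smallest p at 4 h. The 48 h standard errors come from the fit of 13 arrays, which includes the 4 h arrays. Most higher genes keep a positive difference at 48 h, 10 of them past the threshold, while most lower genes lie near or above 0 at 48 h, with Ptgs2 and Ndnf as the 2 that passed.

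Read from the later time, the early values leaned the same way. In the 13-array fit, 361 of the 11242 genes (3.21%) passed at 48 h, 188 higher and 173 lower. These genes depend on the 48 h arrays, since the count of probe sets that passed was 583 (2.81%), but 305 without vehicle 48 h replicate 3 and 330 without vehicle 48 h replicate 2. Of the 188 higher genes, 138 (73.4%) had a 4 h difference above 0, where 49.5% of all genes did, and 51 (27.1%) had NARA arrays above all vehicle arrays at 4 h, where 6.67% of all genes did. Of the 173 lower genes, 140 (80.9%) were below 0 at 4 h, where 50.5% of all genes were, and 43 (24.9%) had no overlap in that direction, where 7.49% did. The median 4 h difference was 0.11 for the higher and -0.10 for the lower genes, against 0.75 and -0.74 at 48 h. The 4 h and 48 h groups share no array, but the 48 h test takes its spread from all 13 arrays, those of 4 h included. Leaving out each array of the 4 h groups in turn gave shares of 70.7% to 75.5% above 0 and 71.1% to 83.8% below 0.

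**Figure D5:**
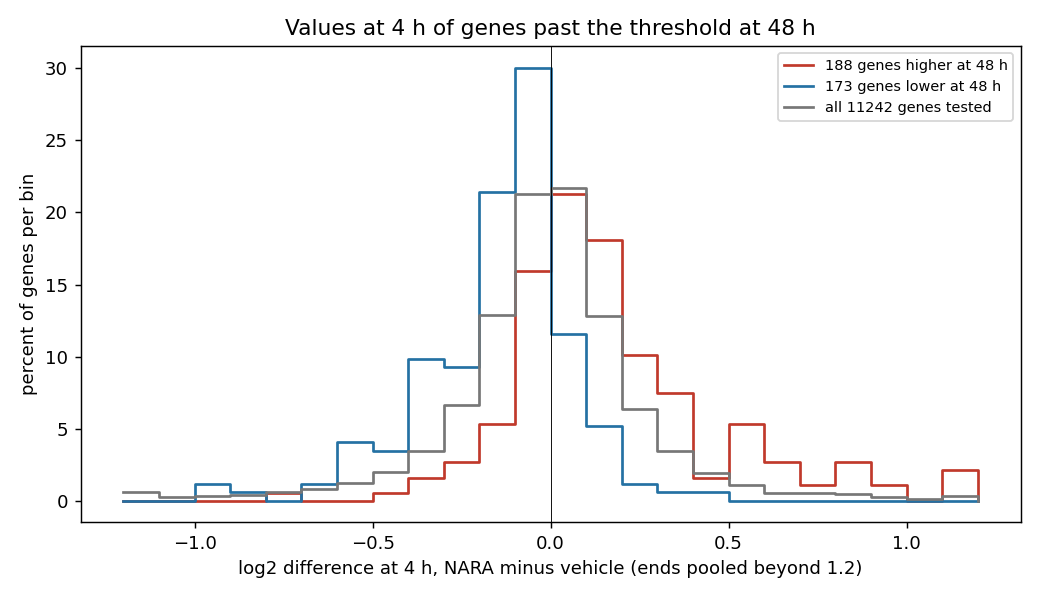
Distribution of the 4 h log2 difference, in percent of genes per bin of 0.1, for the 188 genes higher at 48 h, the 173 genes lower at 48 h and all 11242 genes tested. The higher genes are shifted to the right of all genes and the lower genes to the left, with medians of 0.11 and -0.10 against -0.0014.

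The 94 genes that passed at 48 h and were without overlap in the same direction at 4 h, 51 higher and 43 lower, include many of the genes described above. Sybu, syntabulin, which links vesicles to kinesin, lay at 1.15 at 4 h. Cblb, a ubiquitin ligase of receptor signalling, lay at 0.67 at 4 h and 1.04 at 48 h, and Ctnnal1, an alpha-catenin-like protein, at 0.75 and 2.35. Plau, the urokinase plasminogen activator, had 2554 and 2095 in NARA at 4 h, against 1587, 1594, 1817 and 1448 in vehicle. Tgfb2, a TGF-beta ligand, had 4552 and 3771 in NARA at 4 h, against 3299, 3014, 3092 and 3587 in vehicle, and Slc12a2, the sodium potassium chloride cotransporter, lay at 0.33 at 4 h. Among the lower ones, the kinase Nrk lay at -0.93 at 4 h and -1.90 at 48 h, the gap junction protein Gjb2 at -0.54 and -1.74, and the homeobox factor Msx2 at -0.51 and -0.84. At 4 h Nrk averaged 270 in NARA and 565 in vehicle, so it reached the signal minimum only through its vehicle arrays. For 26 of the 20770 probe sets (0.125%) and 17 of the 11242 genes (0.151%) the 48 h and 4 h effects differed past the threshold, and of the genes named by rule these were Igf1, Sult1a1 and Ptgs2. That count of 26 fell to 1 when either vehicle replicate 3 or NARA replicate 4 of the 48 h groups was left out. Omitting NARA replicate 3 or 2 of the 4 h groups left 5 or 6, omitting vehicle replicate 3 or 1 of the 4 h groups left 12 or 17, and omitting vehicle replicate 2 of the 48 h groups left 16.

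Promoter sequence was examined because the receptor's DNA element is known. The androgen and glucocorticoid receptors bind inverted repeats of a hexamer close to AGAACA, separated by a short spacer. The 250 bases before the start of 27457 rat genes in RefSeq (GRCr8) were searched on both strands. A single AGAACA was present in 18.5% of all genes, and in 4 of the 15 higher genes of smallest p (26.7%, Clk4, Nkain1, Spag4 and LOC100910319) and 2 of the 11 lower genes with a promoter entry (18.2%). Among the 94 genes that passed at 48 h and were without overlap in the same direction at 4 h, it was present in 8 of 42 matched higher genes (19.0%). Of 35 matched lower ones, 2 had it (5.71%). The relaxed palindrome GNACANNNTGTNC, whose letters overlap those of the single hexamer, was present in 0.397% of all genes and in 1 of those 42, Trim63. The full repeat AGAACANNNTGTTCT was present in 1 promoter of the 27457 and in none of these genes. Matches in 4 of the genes described above are shown, to place the letters beside the genes whose values they accompany, 5′ to 3′ on the strand of the gene, with the match in capitals and 25 bases on each side.
Trim63 (chr5:151816992-151817054, plus strand): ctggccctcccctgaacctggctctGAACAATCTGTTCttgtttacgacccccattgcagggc
Sult1a1 (chr1:190706171-190706226, minus strand): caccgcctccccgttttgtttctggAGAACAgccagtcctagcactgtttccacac
Igf1 (chr7:24172452-24172507, plus strand): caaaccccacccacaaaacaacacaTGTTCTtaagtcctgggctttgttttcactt
Spag4 (chr3:165041065-165041120, plus strand): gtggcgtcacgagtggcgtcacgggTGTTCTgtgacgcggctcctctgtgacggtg
The Trim63 match lies 219 to 207 bases before the start, those of Sult1a1 and Spag4 89 to 84 bases and that of Igf1 55 to 50 bases. Hdhd3, Glul and Sgk1, which had promoter entries, had none of these motifs in this window. No match was listed for Tsc22d3, Fkbp5 or Ptgs2 either, but whether each of them had a promoter entry was not recorded. A match describes the sequence only, no binding was measured here, and elements outside the window were not searched.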

How the data were processed

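Total RNA, 5 µg per sample, was labelled with biotin and hybridised to 1 array per sample, per the labels' protocols. The labels describe a Trizol extraction, whereas the design text names a column kit, and the sources used here do not settle this. Per the submitters' processing notes, the deposited intensity of each probe set is a linear MAS5 signal, which the authors scaled to a trimmed mean of 1500, per the design text. The trimmed means of the 6 arrays were 1500.47 to 1500.49. Detection calls were not used.

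Of 31099 probe sets, 57 controls were removed. Those averaging 300 or more across the 6 arrays, 20770 in all, were tested. The platform annotation gave 15398 of them 1 gene symbol, 344 several and 5028 none, and the brightest probe set stood for each of 11242 genes. Group means were fitted on log2(signal + 50) with limma 3.58.1 (lmFit, eBayes) in R 4.3.3, with 4 residual and 2.18 prior degrees of freedom. Two-sided p-values were Benjamini-Hochberg adjusted across the whole tested table, and 0.05 was the threshold. The 48 h contrast and the difference of effects came from 1 fit of the 13 arrays that the authors kept, on the same probe sets, with 4 groups sharing 1 estimate of the spread. Errors of log2 differences are limma's standard errors. The statistics were tested on simulated data first.

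Named genes were those that passed, the 15 higher and 15 lower of smallest p, the 8 of greatest difference in each direction among genes without overlap and with a mean signal of at least 1000 in the higher group, the 3 members of smallest p of each of 32 functional lists, and Fkbp5, Tsc22d3, Sgk1, Igf1, Fst, Ptgs2, Il1b and Cxcr4. Other genes of the lists, or of the 94 genes that passed at 48 h and were without overlap at 4 h, were chosen after their values were seen. The members and the lists were chosen with earlier results of these data known. The 32 lists held 870 entries, and 707 different genes of them were measured. Same-numbered NARA and vehicle arrays did not deviate together (r = 0.006 and -0.032), so no pairing was used. Alternatives covered the arrays, the offset, the signal minimum, the scaling, the prior and the block. Promoters came from RefSeq (GRCr8), and the 250 bases before the start were searched.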

Additional observations from a re-analysis of the deposited data

Results flagged for a closer look

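For 3 genes the effect of NARA at 48 h differed from that at 4 h in limma's test of the difference. The later effect was more negative for Ptgs2, by -1.48 log2 units (SE 0.220, limma adjusted p = 0.0270). It was more positive for Sult1a1, by 1.74 (SE 0.243, limma adjusted p = 0.0222), and for Igf1, by 1.27 (SE 0.179, limma adjusted p = 0.0222). Each value is that of the gene's brightest probe set. Dimmer probe sets of Igf1 gave 0.99 and 1.59 (limma adjusted p = 0.186 and 0.0198). Each of the 13 arrays was left out in turn, a check added after seeing the data, and the call of Ptgs2 held in 3 of the 13 fits, that of Sult1a1 in 6 and that of Igf1 in 7, with limma adjusted p reaching 0.0944, 0.0834 and 0.0830. None of the 3 held with the replicate number as a block (limma adjusted p = 0.178, 0.178 and 0.210) or with all 16 arrays (0.974, 0.976 and 0.505).

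In 4 of the 120 named genes, 1 vehicle array at 4 h lay apart from the other vehicle arrays by Dixon's criterion, which chance meets in about 1 group in 20. Ptpre, a receptor-type tyrosine phosphatase, had 648.6 in vehicle replicate 2, the lowest of the 4. Mmp23, a membrane metalloproteinase, had 299.9 in the same array, also the lowest. Vcam1, an adhesion molecule, had 456 in vehicle replicate 3, and Cdt1, a licensing factor of DNA replication, had 934 there, both the highest of the 4.

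The excluded arrays NARA 4 h replicate 1 and replicate 4 carried liver transcripts. The summed signal of 19 liver markers was 2260100 and 2642110 in these arrays, against 6652 to 7353 in the vehicle arrays, while the fibroblast marker sums were 105554 and 136304, against 765896 to 948775. The ratio of 3′ to 5′ signal of the actin control was 7.98 and 4.96 in the excluded arrays, against 2.52 to 2.81 in vehicle. These arrays entered none of the contrasts in the report, and were used for the correlations between arrays and in the alternatives with all 16 or 8 arrays.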

How the results depend on the processing

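The count of 3 probe sets at 4 h was 3 with array weights, an offset of 1, quantile normalization or median centring, and 4 with the signal minimum taken over 13 arrays. It was 1 with an offset of 200 or with all 16 arrays. It was 0 with the 13 arrays, with all 8 arrays of the 4 h groups, with no signal minimum (1594 at an unadjusted p under 0.05) or with a minimum of 1000 (714). It was 8 with a trended and robust prior, and none of the 3 was among the 8. Without each array in turn it was 0 to 0, with 1038 to 1301 at an unadjusted p under 0.05; without a NARA array, the lone NARA sample was assumed to vary like the vehicle group.

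At 48 h 583 probe sets passed. The count was 35 with all 16 arrays, 1062 with a minimum of 1000, 1091 with the trended and robust prior, and 305 to 522 without each array, lowest without vehicle 48 h replicate 3 (305) and replicate 2 (330). For the difference of effects 26 passed, against 0 with all 16 arrays, 44 with an offset of 200, 73 with a minimum of 1000 and 125 with the trended and robust prior. Without each array it was 1 to 36: 1 without vehicle 48 h replicate 3 or NARA 48 h replicate 4, 5 and 6 without NARA 4 h replicates 3 and 2, 12 and 17 without vehicle 4 h replicates 3 and 1, and 16 without vehicle 48 h replicate 2.

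With the replicate number as a block, 0 probe sets passed at 4 h (927 at an unadjusted p under 0.05), 308 at 48 h and 0 for the difference. The numbers are not known to pair the samples, since the labels name no shared culture or day. The block also leaves very few residual degrees of freedom at 4 h.

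Of 122 named values at 4 h, 28 changed sign with the 16 or the 8 arrays, which include the excluded arrays, and 1, Mfap4, without NARA 4 h replicate 3. No other alternative changed a sign. Of the 45 other probe sets of 34 named genes, 35 had the sign of the gene's value. The leave-one-array checks of early genes at 48 h, and of genes that passed at 48 h in the 4 h arrays, were chosen after seeing the data. With 2 NARA arrays, dim transcripts are the least determined.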
